A study of Mus musculus with 11 samples.

Results

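Fibroblasts of the liver after 6 weeks of carbon tetrachloride (CCl4) were compared here with those of uninjured liver. The members are 5915 of the 11401 cells in a pair of 10X Chromium libraries, 3856 cells from uninjured mice and 2059 cells from mice given CCl4. They were chosen by their own counts: at least 300 genes, at most 30% mitochondrial UMIs, at least 4 UMIs summed over Cd34, Clec3b and Dpt, and at most 1 UMI summed over Myh11 and Cnn1. A UMI is a unique molecular identifier, which counts 1 captured RNA molecule. Those 5 genes selected the cells, so they are not reported as results, and the cells are called fibroblast-selected.

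All mice were young adult male Pdgfrb-BAC-eGFP reporters on a C57BL/6 background, in which the Pdgfrb promoter drives green fluorescent protein in perivascular mesenchyme. The injured mice had received CCl4 by repeated intraperitoneal injection for 6 weeks, and the uninjured mice had received none. In both conditions the livers of 3 mice went into 1 library after the digestion that the labels call PF, and GFP-positive cells without CD45 or CD102 staining were sorted. With 1 library per condition, no test between conditions was possible on these cells, and the condition cannot be told apart from anything else that differed between the libraries. Smart-seq2 plates gave the only replicated comparison: wells chosen by the same genes, summed over 5 uninjured and 4 CCl4 portions, a portion being the wells of 1 mouse on 1 plate. All CCl4 portions came from plates 3 and 5, and uninjured portions from plates 1 to 5. Plates 1, 2 and 4 held no CCl4 mice but mice with bile duct ligation, whose wells were left out. Condition and plate are thus partly confounded, and the main test had no plate term.

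Fibroblasts of the portal tract lie in the connective tissue around the portal vein, hepatic artery and bile duct. They secrete collagens, elastic fibre proteins, proteoglycans, complement proteins and chemokines. CCl4 is activated by cytochrome P450 in hepatocytes around the central vein, so the scars of this model form mainly by the central vein, and hepatic stellate cells are known as their main collagen source. Vascular smooth muscle cells, which share the portal tract with the fibroblasts, carry the Pdgfrb reporter too.

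The label was set beside markers that had not selected the cells. Entpd2 stood at 386 and 387 counts per 1000000 UMIs (CPM) in the uninjured and CCl4 fibroblast-selected cells, Fbln2 at 286 and 374, Col15a1 at 291 and 248, and Gpx3 at 2726 and 3180. In smooth muscle-selected cells of the same libraries, chosen by at least 4 UMIs of Myh11 and Cnn1 and at most 1 of the fibroblast genes, these 4 genes reached at most 242 CPM, which was Gpx3 after CCl4. In cells of the HSC preparations, the libraries made by the digestion labelled HSC, they reached at most 222 CPM, again Gpx3 after CCl4. Here and below, these are cells with at most 1 UMI of the fibroblast genes and at most 1 of Myh11 and Cnn1. That kept 6650 of 6850 uninjured and 3905 of 5454 CCl4 cells that passed the filters in these preparations. All 4 markers were far higher in the fibroblast-selected cells, in both conditions. Both comparison groups were limited to at most 1 UMI of the selecting fibroblast genes. Genes found together with those would differ by that choice, so the contrast is no independent check of the label.

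Depth was similar in both libraries. The fibroblast-selected cells held 19350378 UMIs in the uninjured and 12305054 in the CCl4 library, with medians of 4922 and 5855 UMIs, 1978 and 2252 genes, and 2.02% and 2.24% mitochondrial UMIs per cell. Their share of the cells that passed the filters was 67.2% (exact 95% interval 66.0 to 68.4) in the uninjured and 36.5% (35.2 to 37.7) in the CCl4 library. The limit on Myh11 and Cnn1 removed 192 of 4048 uninjured cells with enough fibroblast UMIs and 850 of 2909 CCl4 cells, so it bears on that gap. Both libraries shared 45 cell barcodes, 11 of them in fibroblast-selected cells. At the threshold, 43 uninjured and 22 CCl4 cells had a marker sum of 3 and were left out, and 43 and 20 had a sum of 4 and were kept, against medians of 27 and 31. Intervals here and below cover counting error only, not the spread between mice.

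A total of 5998 genes reached 20 CPM in at least 1 library and were compared. A gene is called here when its CPM ratio is at least 1.5 either way, and 284 genes (4.73%) were called higher and 117 (1.95%) lower after CCl4. The median log2 ratio of all genes compared was -0.02, and 93.3% of the genes lay within 1.5-fold. A fold of 2 was reached by 78 genes upwards and 22 genes downwards. The levels of most genes were therefore close in both libraries, as the plot of all compared genes shows.

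**Figure D1:**
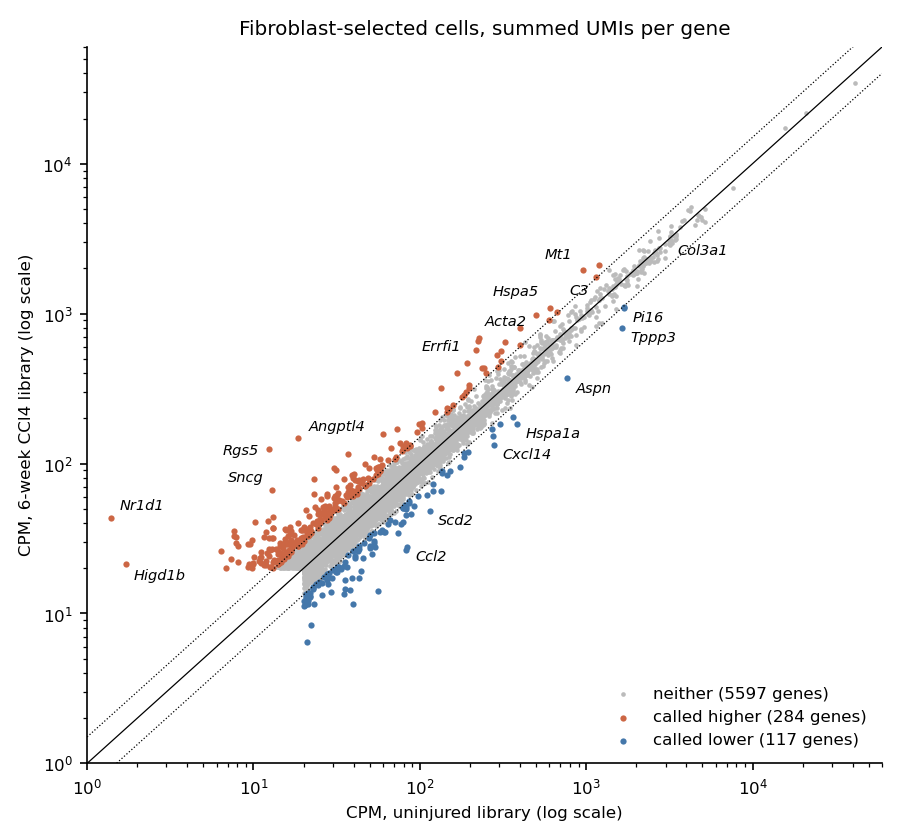
Each point is 1 of 5998 genes, with its CPM in uninjured fibroblast-selected cells on the x axis and in those after 6 weeks of CCl4 on the y axis, both on log scales. The solid line marks equal levels and the dotted lines 1.5-fold, and 284 genes lie on or above the upper and 117 on or below the lower line, with Nr1d1 and Higd1b at the far left, and Rgs5 and Angptl4 next in ratio.

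Angptl4 had the largest ratio of the genes named after Rgs5, which is given with the contractile genes. It encodes angiopoietin-like 4, a secreted inhibitor of lipoprotein lipase that fasting, glucocorticoids and hypoxia are known to induce, and lies at chr17:33773750-33781830 (GRCm38, minus strand). Its level was 18.6 CPM (95% Poisson interval 16.7 to 20.6) in uninjured and 149 CPM (142 to 156) in CCl4 fibroblast-selected cells, a ratio of 8.01 (7.15 to 8.99). After each cell was thinned to 2000 UMIs, 3.58% of uninjured cells (3.01 to 4.23) and 21.6% of CCl4 cells (19.8 to 23.5) held an Angptl4 UMI, against 7.68% and 45.8% without thinning. The part of free RNA in these shares was not tested. Smooth muscle-selected cells also differed, at 4.42 and 45.4 CPM, and 0.969% and 8.16% of them held a UMI after thinning.

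Ddit4, a stress-induced inhibitor of the mTORC1 kinase, was at 23.1 CPM in uninjured and 79.2 in CCl4 cells, a ratio of 3.43. Errfi1, a feedback inhibitor of the EGF receptor, was at 224 and 657 CPM, a ratio of 2.93, and 51.6% and 81.9% of cells held a UMI without thinning. Both were higher in smooth muscle-selected cells than in fibroblast-selected cells of the same library: Errfi1 reached 626 and 1043 CPM there. Myc, a transcription factor of growth, was at 35.1 and 78.4 CPM, and Dusp1, a phosphatase that switches off MAP kinases, at 1140 and 1762 CPM. They were the called members of the immediate early list, 2 of 17 compared, beside 4.73% of all genes compared called higher. The median log2 ratio of that list, -0.23, was below that of all genes. Fos, Jun and Egr1 had ratios of 0.867, 0.940 and 1.00.

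Arf3, Wbp1l and Pi15 completed the group of largest ratios outside the contractile genes. Arf3, a small GTPase of vesicle traffic, was at 36.8 and 116 CPM, and Wbp1l, a WW-domain binding protein, at 31.2 and 90.5 CPM. Smooth muscle-selected cells had ratios of 3.24 and 2.42 for these genes, beside 3.14 and 2.91 in the fibroblast-selected cells, so the difference was seen in both cell groups. Pi15, a secreted protein of the CAP family, was at 30.6 and 92.9 CPM.

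**Figure D2:**
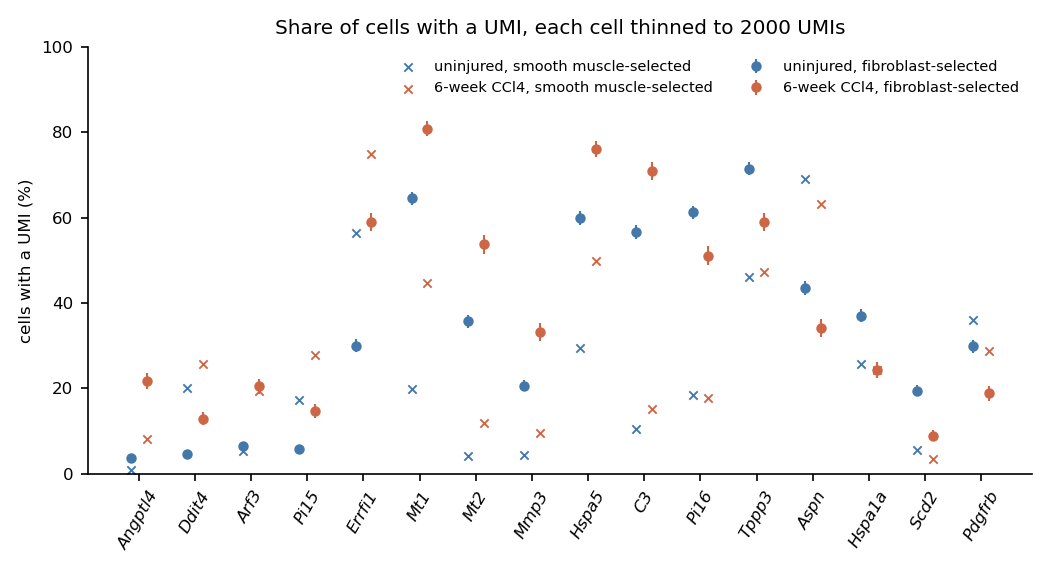
The y axis gives the percent of cells with at least 1 UMI of a gene after thinning each cell to 2000 UMIs, with exact 95% intervals, in 3711 uninjured (blue) and 1984 CCl4 (orange) fibroblast-selected cells (points) and in smooth muscle-selected cells of the same libraries (crosses). Angptl4 moved from 3.58% to 21.6% and Mt2 from 35.7% to 53.8% of fibroblast-selected cells, and Tppp3 from 71.5% to 59.0%.

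Mt1, Mt2 and Cebpb were the called members of the list of acute phase genes and metallothioneins. Metallothioneins are small cysteine-rich proteins that bind zinc, copper and cadmium, and they are induced by metals, glucocorticoids and oxidative stress. Mt1 stood at 958 CPM (945 to 972) in uninjured and 1958 CPM (1934 to 1983) in CCl4 cells, and Mt2 at 400 and 802 CPM. Their ratios were 2.04 and 2.00, and the thinned share of cells with a UMI moved from 64.5% to 80.9% for Mt1. Cebpb, a transcription factor of the acute phase response, was at 307 and 565 CPM. Of the 7 list members compared these 3 were called higher and the other 4 were not called, with ratios from 0.878 for Socs3, and the median log2 ratio was 0.57. Over all genes compared, 4.73% were called higher. The same 3 genes were higher in smooth muscle-selected cells as well, with ratios of 2.73 for Mt1, 2.97 for Mt2 and 1.80 for Cebpb.

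Complement genes also had a median above that of all genes. Complement is a cascade of plasma proteins, C3 its central component, C4b and C2 parts of the classical pathway convertase, and factor B (Cfb) part of the alternative one. C3 was at 664 CPM (653 to 676) and 1027 CPM (1009 to 1045), C4b at 183 and 286, C2 at 45.5 and 78.7, and Cfb at 16.2 and 28.9. These 4 of 12 members compared were called higher, beside 4.73% of all genes compared, and none lower, and the median log2 ratio was 0.49. The ratios ran from 1.54 for C3 to 1.79 for Cfb, so all 4 lie close to the threshold. In cells with a Pi16 UMI they were 1.64 for C3, 1.85 for C4b, 2.09 for C2 and 1.85 for Cfb, and in cells without 1.29, 1.12, 1.19 and 1.60, so 3 of the 4 calls were lost there. Without cells carrying at least 3 smooth muscle markers, C4b had 1.41 and Cfb 1.49. Smooth muscle-selected cells held far less C3, at 49.2 and 91.3 CPM. The remaining 8 members had ratios from 0.745 for Cd55, a complement inhibitor, to 1.48 for Clu.

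Fibrillar collagens were not called. Col1a1, which encodes the alpha 1 chain of type I collagen, stood at 1481 CPM (1464 to 1499) in uninjured and 1832 CPM (1808 to 1856) in CCl4 cells, a ratio of 1.24 (1.22 to 1.26). Col1a2 had a ratio of 1.17 and Col3a1, of type III collagen, a ratio of 0.966, from 3163 to 3055 CPM. None of the 6 members compared was called in either direction, and the median log2 ratio was -0.02, the same as over all genes. In cells of the HSC preparation, Col1a1 stood at 191 and 375 CPM, a ratio of 1.96 in libraries made by another digestion. Uninjured fibroblast-selected cells thus already held more Col1a1 per UMI than these cells of the injured HSC preparation. The HSC preparation values rest on 6650 of 6850 uninjured and 3905 of 5454 CCl4 cells. The other cells, with more UMIs of the selecting genes, were left out.

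The rest of the matrix held few calls, in both directions, beside 4.73% higher and 1.95% lower over all genes compared. Col6a1, a chain of the beaded filament collagen VI, was at 598 and 911 CPM, Col18a1, which carries endostatin, at 22.3 and 34.4, and Col12a1, a fibril-associated collagen, at 35.3 and 22.2. They were the called 3 of 17 other collagens. Adamts2, the protease that removes the amino propeptide of procollagen, was at 242 and 432 CPM, and Lox, the enzyme that crosslinks collagen and elastin, at 54.2 and 93.5 CPM. Both belong to collagen processing, where 2 of 17 members were called higher and none lower. Of the elastic fibre list, Emilin1 and Efemp1 were called higher among 16, with ratios of 1.68 and 1.54, and Mfap4, a microfibril-associated glycoprotein of these cells, was at 1742 and 1937 CPM. Basement membrane glycoproteins had 1 call among 10, Smoc1 at 14.8 and 23.9 CPM. Among 14 matricellular proteins, Spon1 was higher at 55.8 and 84.8 CPM and Postn, which is known for collagen assembly in scars, lower at 146 and 83.9 CPM.

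Aspn, asporin, a small leucine-rich proteoglycan that binds collagen and TGF-beta, was the most abundant gene called lower in the matrix lists. It was at 771 CPM (759 to 784) in uninjured and 369 CPM (359 to 380) in CCl4 cells, a ratio of 0.479 (0.463 to 0.495), and lies at chr13:49544443-49567565 (plus strand). After thinning, 43.6% and 34.1% of cells held a UMI. Smooth muscle-selected cells held 646 and 568 CPM, and 69.1% and 63.2% of them a UMI. Of the 11 proteoglycans compared, the other called member was Epyc, lower at 20.9 and 6.42 CPM, and Dcn and Lum had ratios of 1.09 and 0.975.

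Among proteases and their inhibitors, Mmp3 was higher and Pi16 lower. Mmp3, stromelysin 1, a matrix metalloproteinase that cleaves proteoglycans and activates collagenases, was at 501 CPM (491 to 511) and 986 CPM (969 to 1004). It was found in a minority of cells, 20.6% and 33.2% after thinning, so its level rests on fewer cells than that of the collagens. Adamts4, an aggrecanase, was at 9.87 and 21.6 CPM. The list had 2 calls higher and 1 lower among 21, beside 4.73% and 1.95% of all genes compared.

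Genes known to distinguish fibroblast subsets were lower where they were called. Pi16, a secreted peptidase inhibitor that marks fibroblasts of the vessel adventitia, was at 1688 CPM (1670 to 1706) in uninjured and 1095 CPM (1077 to 1114) in CCl4 cells. Ackr3, a scavenger receptor of Cxcl12, was at 304 and 184 CPM, Ly6c1 at 196 and 119, Cxcl13 at 92.9 and 52.2, and Wif1, a secreted Wnt inhibitor, had a ratio of 0.504. Cxcl13 was found in 3.48% and 3.25% of cells, and its ratio of 0.562 moved to 0.235 in cells with no UMI of Myh11 or Cnn1, to 0.186 without cells carrying smooth muscle markers and to 0.781 in cells without Pi16, where it is not called. With all cells, Pi16, Ackr3, Ly6c1, Cxcl13 and Wif1 were the 5 of 15 members called lower, beside 1.95% of all genes compared. None was called higher, and the median log2 ratio was -0.26. Other genes were also compared within cells with and without a Pi16 UMI, 2866 and 990 uninjured cells and 1421 and 638 CCl4 cells. Of the other 75 called genes named by the rule, 73 stayed past 1.5-fold in the cells with and 48 in the cells without Pi16. Cells with Pi16 are most of the cells that gave these calls, so the count of 73 does not test them. Angptl4 had ratios of 8.84 and 6.05 in cells with and without Pi16, Mt1 1.94 and 2.33, and Errfi1 2.97 and 2.80. Cxcl14 had 0.379 in cells with Pi16, from 319 to 121 CPM, and 1.21 in cells without, from 140 to 169 CPM, and Ccl7 had 0.444 and 1.03. For both chemokines the direction differed between the subsets, which was not tested.

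Tppp3, Pthlh, Dkk2, Scd2 and Hlf were among the 10 lowest ratios at 50 CPM or more. Tppp3, a protein of the tubulin polymerization promoting family, was at 1646 CPM (1628 to 1664) and 807 CPM (791 to 823), a ratio of 0.490, and lies at chr8:105467493-105471526 (minus strand). Pthlh, parathyroid hormone-related protein, was at 82.3 and 26.5 CPM, and Dkk2, a modulator of Wnt receptors, at 73.9 and 34.2. Both were nearly restricted to the fibroblast-selected cells, with at most 1.93 CPM in smooth muscle-selected cells. Scd2, a desaturase that makes monounsaturated fatty acids, was at 114 and 48.5 CPM, and Hlf, a transcription factor under circadian control, at 51.4 and 25.1 CPM.

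Chemokines and cytokines were called lower or not at all in the pair of libraries, and the plates differed for most of those called. Ccl2 and Ccl7, which attract monocytes, were at 83.6 and 27.8 CPM and at 76.6 and 39.5 CPM. Only 2.13% (1.69 to 2.65) and 1.86% (1.32 to 2.56) of thinned cells held a Ccl2 UMI, so its level rests on few cells. Cxcl14 was at 279 and 133 CPM. With Ackr3 and Cxcl13 these made 5 lower and 0 higher calls among 16, beside 1.95% lower and 4.73% higher over all genes compared. The median log2 ratio of the list was 0.03. Cxcl12, the ligand of Ackr3, had a ratio of 0.994, Cxcl1 of 1.11 and Ccl11 of 1.18.

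Growth factor pathways held calls for single members, beside 4.73% higher and 1.95% lower over all genes compared. In the TGF-beta and BMP list, 4 of 26 were called higher and 3 lower, with a median log2 ratio of 0.02. Of these, Grem1, a secreted BMP antagonist, was at 9.77 and 20.1 CPM, with a ratio of 3.89 in cells with a Pi16 UMI and 1.00 in cells without, Id1, a target of BMP signalling, was at 27.8 and 60.9 CPM, and Inhba, a subunit of activin, at 21.4 and 11.6. Called members that the naming rule had not picked included Gdf10, higher with a ratio of 1.60, and Nbl1, a BMP antagonist, and Tgfb1, lower with 0.657 and 0.637. Within the Wnt list, Fzd1, a receptor, was higher at 25.5 and 46.6 CPM, with Dkk2 and Wif1 lower, among 17. The list of PDGF, FGF, VEGF and HGF had 3 higher and 2 lower calls among 21. Vegfc, the growth factor of lymphatic vessels, was at 55.7 and 94.4 CPM, Pdgfd at 21.6 and 36.3, and Fgf18 at 53.6 and 27.5. Among receptors, Pdgfra was at 311 and 342 CPM and Lpar1, a lysophosphatidic acid receptor, at 190 and 174, neither called, while Pdgfrb was called lower at 184 and 110 CPM. Pdgfrb drives the reporter by which the cells were sorted. Its ratio was 0.708 in smooth muscle-selected cells. In the IGF axis, Pappa was higher and Igfbp5 lower, with ratios of 1.67 and 0.637 among 10.

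Transcription factors of the mesenchymal lineage had 2 higher and 4 lower calls among 29, beside 4.73% higher and 1.95% lower over all genes compared. Tbx20, of the T-box family, was at 10.2 and 40.7 CPM, with a ratio of 6.21 in smooth muscle-selected cells. Tcf21, Twist1, Meox1 and Sox9 were the lower ones, from 120 to 65.3, 39.1 to 17.3, 88.6 to 46.2 and 21.8 to 12.9 CPM. Tcf21 and Twist1 are regulators of fibroblast identity in development. Their ratios in smooth muscle-selected cells were 0.448 and 0.421, beside 0.545 and 0.442 in fibroblast-selected cells.

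**Figure D3:**
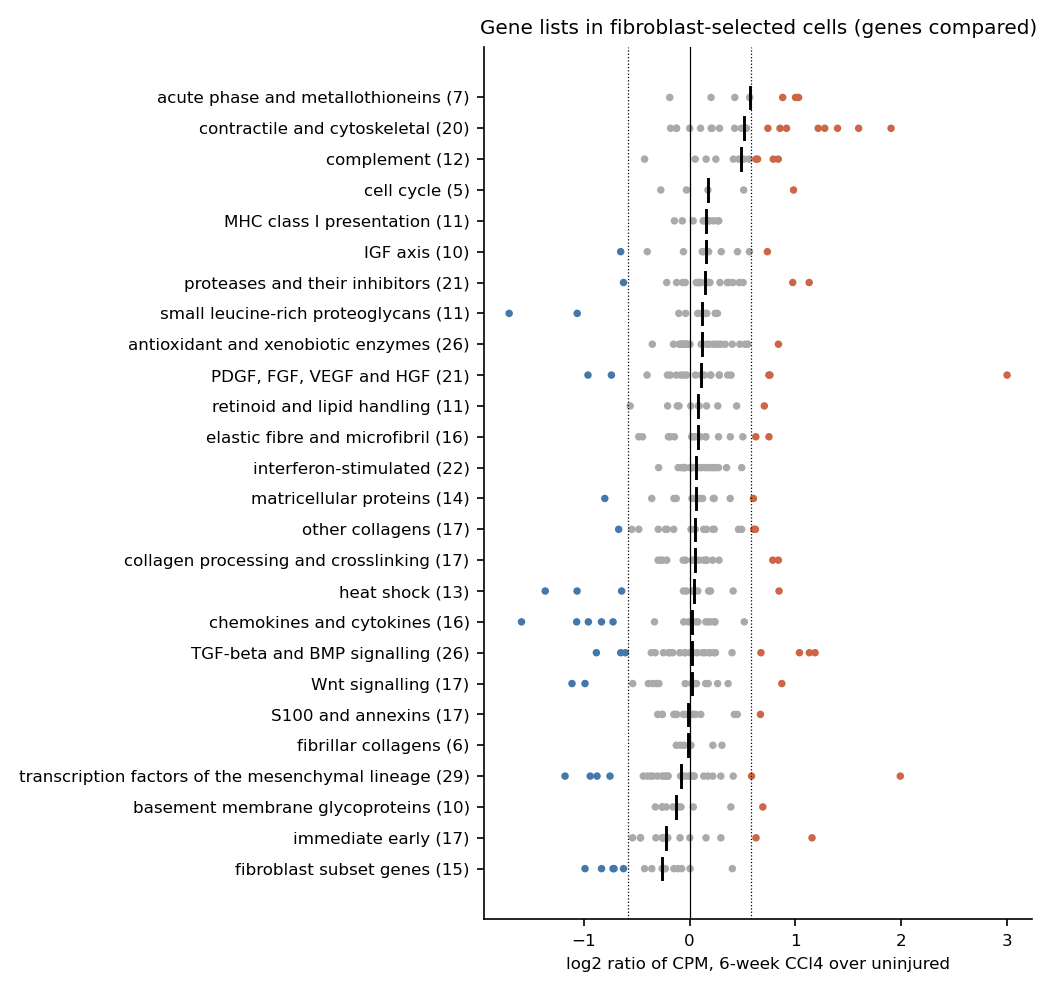
Each row is a gene list with the number of its members compared in parentheses, each point a member's log2 CPM ratio of CCl4 over uninjured fibroblast-selected cells, orange where called higher and blue where called lower, and the black bar the median. Medians ran from -0.26 for fibroblast subset genes to 0.57 for acute phase and metallothionein genes.

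Heat shock genes were called in both directions, beside 4.73% higher and 1.95% lower over all genes compared. Hspa5, the chaperone BiP of the endoplasmic reticulum, was higher, at 603 CPM (592 to 614) and 1083 CPM (1065 to 1102), while Hspa1a and Hspa1b, the inducible cytosolic Hsp70 proteins, were lower. Hspa1a was at 385 and 184 CPM and Hspa1b at 34.9 and 13.6 CPM. Hsph1, which recycles nucleotides on Hsp70, was at 31.6 and 20.2 CPM, and the other 9 of 13 members were not called. Hsp90b1, also a chaperone of the endoplasmic reticulum, had a ratio of 1.02. Hspa1a and Hspa1b are near-identical copies, so how reads were split between them is uncertain. This extends to the bases before their starts, shown here because both copies had lower counts: in RefSeq on GRCm38.p6, 247 of 250 bases are the same at the same position. Capitals mark the heat shock element letters GAANNTTC, searched on both strands, which 6.69% of 32851 promoter windows of that length hold. The windows are chr17:34972157-34972406 and chr17:34959239-34959488, both on the minus strand and printed 5′ to 3′.
Hspa1a: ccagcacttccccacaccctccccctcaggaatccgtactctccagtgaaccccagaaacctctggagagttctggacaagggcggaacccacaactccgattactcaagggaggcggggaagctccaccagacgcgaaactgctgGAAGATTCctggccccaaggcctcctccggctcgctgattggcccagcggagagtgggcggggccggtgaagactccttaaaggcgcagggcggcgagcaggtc
Hspa1b: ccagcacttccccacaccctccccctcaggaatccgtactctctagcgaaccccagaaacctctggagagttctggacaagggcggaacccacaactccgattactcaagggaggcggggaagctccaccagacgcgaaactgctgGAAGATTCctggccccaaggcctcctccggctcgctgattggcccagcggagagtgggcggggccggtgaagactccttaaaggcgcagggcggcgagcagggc
Each window holds 1 match, which describes the sequence and not a bound site.

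Interferon and antigen presentation genes were close in both conditions. Beside the counts that follow, 4.73% of all genes compared were called higher and 1.95% lower. No member of 22 interferon-stimulated and 11 class I presentation genes was called, and B2m and Ifitm3, the most abundant, had ratios of 1.17 and 1.01. Among 26 antioxidant and xenobiotic enzymes 1 was called, Cyp1b1, at 42.9 and 76.8 CPM, and Cyp2e1, which activates CCl4, had a ratio of 1.23. Of retinoid and lipid genes 1 of 11 was called, Aldh1a3 at 16.3 and 26.6 CPM, and of S100 proteins and annexins 1 of 17, S100a4 at 21.6 and 34.3 CPM. Mki67, a marker of dividing cells, had 4 UMIs in the uninjured and 1 UMI in the CCl4 cells. Only 5 of 24 cell cycle genes reached the level for comparison, and the 1 call among them was Ccnd1 at 11.1 and 21.9 CPM.

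Contractile genes formed the largest group of higher calls, 8 of 20 and none lower, with a median log2 ratio of 0.51. Over all genes compared, 4.73% were called higher and 1.95% lower. Acta2, smooth muscle actin and a usual marker of myofibroblasts, was at 226 CPM (220 to 233) and 686 CPM (671 to 701), a ratio of 3.03, and 33.7% and 74.5% of thinned cells held a UMI. Myl9, Tpm2, Tagln and Actg2, which encode a myosin light chain, a tropomyosin, transgelin and a further actin, had ratios of 2.64, 2.43, 2.32 and 3.75. Rgs5, a regulator of G protein signalling in pericytes and smooth muscle, had the highest ratio of the genes named, 10.1 (8.80 to 11.6), from 12.5 to 126 CPM. It is in the list of stellate cell markers, and in cells of the HSC preparations it stood at 2487 and 2692 CPM. Sncg, a synuclein, and Bcam, a laminin receptor, had ratios of 5.14 and 2.72.

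All of these genes were far higher in smooth muscle-selected cells, which were more numerous in the CCl4 library. In smooth muscle-selected cells Acta2 stood at 17687 and 15754 CPM, Tagln at 10419 and 7683, Rgs5 at 1005 and 3899, Sncg at 1013 and 1132, and Bcam at 1071 and 1095. Smooth muscle-selected cells numbered 1098 in the uninjured and 1570 in the CCl4 library and gave 13.9% and 21.3% of the UMIs of all cells that passed. As a percent of the smooth muscle level in its own library, the fibroblast level of Acta2 was 1.28% and 4.35%, of Actg2 1.32% and 4.87%, of Sncg 1.28% and 5.90%, of Rgs5 1.24% and 3.22%, and of Tagln 0.700% and 2.21%. For all 8 genes plotted, this percent was 0.700% to 2.72% in the uninjured and 2.21% to 8.05% in the CCl4 cells. Of the 10 smooth muscle markers that had not selected the cells, 7 of 8 compared were called higher, and their summed level moved from 646 to 1567 CPM. The part of free RNA or of mixed droplets in these contractile calls was not tested. When cells with at least 3 of those markers were left out, 2581 uninjured and 438 CCl4 cells remained. The ratios were then 9.65 for Rgs5, 5.47 for Sncg, 2.78 for Bcam and 2.71 for Myl9, which are not among those markers, close to the values with all cells. Of the genes that are among those markers, Acta2 had 3.60, Tpm2 2.57, Tagln 1.74 and Actg2 0.540. Their own counts decided which cells were left out, so these ratios are not a result about them.

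**Figure D4:**
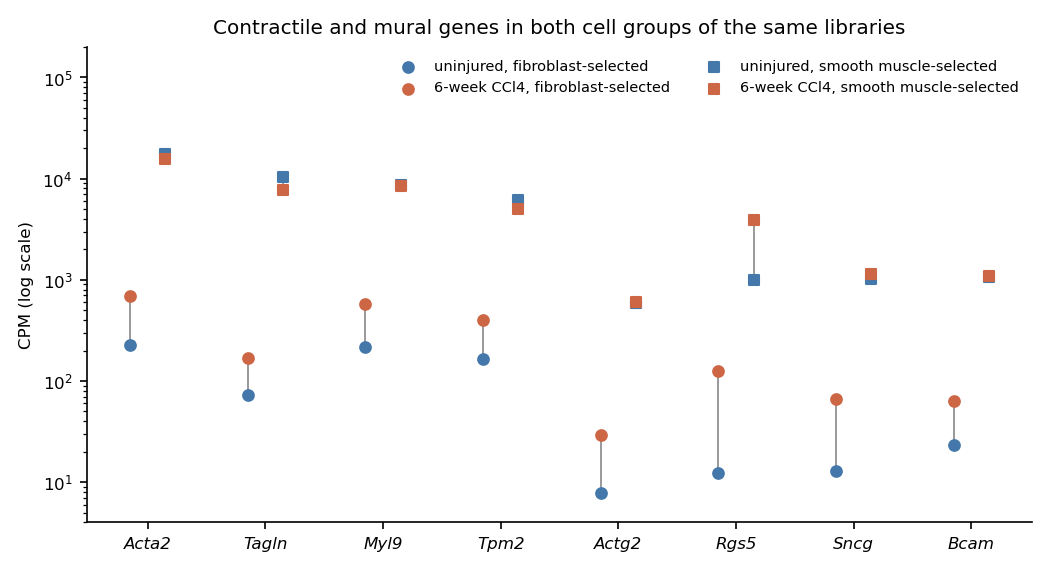
The y axis gives CPM on a log scale for 8 contractile and mural genes, in fibroblast-selected cells (circles) and smooth muscle-selected cells (squares) of the uninjured (blue) and CCl4 (orange) library, with a grey line joining the conditions. In fibroblast-selected cells all 8 genes are higher after CCl4, while in smooth muscle-selected cells Rgs5 alone is past 1.5-fold.

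Markers of endothelial cells, leucocytes, mesothelial cells and Schwann cells were low, while those of hepatocytes and stellate cells were higher. The summed level of 8 endothelial markers was 13.3 and 12.3 CPM, of 10 leucocyte markers 10.2 and 8.45 CPM, with Ptprc, Cd3e and Ms4a1 at 0 in both libraries, of 7 mesothelial markers 5.74 and 3.90 CPM, and of 8 Schwann cell markers 8.79 and 14.5 CPM. A count of 0 allows up to 0.155 CPM in the uninjured and 0.244 CPM in the CCl4 cells. Among 8 cholangiocyte markers, Sox9 was called lower, and Epcam was at 0. Hepatocyte markers summed to 195 and 262 CPM, of which Trf, transferrin, gave 150 and 231 CPM. Alb, albumin, was at 7.80 and 7.96 CPM. In cells of the HSC preparations Trf stood at 238 and 119 CPM, and the source of its difference was not tested. Stellate markers summed to 716 and 879 CPM, and without Rgs5 none of them was called. Leaving out cells with multiple markers of any of these types kept 2428 of 3856 uninjured and 760 of 2059 CCl4 cells. With these, 351 genes were called higher and 148 lower.

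The replicated plate data were used to see how these differences stood against the spread between portions. The 5 uninjured portions held 29 to 53 fibroblast wells each and the 4 CCl4 portions 24 to 63, with 11400524 to 25757504 reads per portion. Whether portions of the same condition come from separate mice is not stated, since the same mouse names recur on the plates, so p-values measure only the spread between portions and may be too small. With edgeR's quasi-likelihood test, 38 of 12700 genes (0.299%) passed an adjusted p of 0.05 as higher and 3 (0.0236%) as lower. The test had little power: in simulated data it found 3.06% of genes changed 2-fold and 27.6% of those changed 4-fold.

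Directions on both platforms were then compared. Of the 284 genes called higher on 10X, 270 were tested on the plates, and 48.5% of them had a positive log2 fold change there, beside 46.7% of the 5439 genes called neither way. Of the 117 called lower, 110 were tested, and 54.5% had a negative one. Both shares lie near those of the uncalled genes. Of the 76 named genes called on 10X, 75 were tested, 48 had the same direction and 2 passed the test, Cfb and Trf.

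Cfb stood at 52.0, 115, 119, 207 and 216 reads per 1000000 reads (RPM) in the uninjured and at 417, 988, 1038 and 1148 RPM in the CCl4 portions. All CCl4 portions were above all uninjured ones, with a log2 fold change of 2.68 ± 0.43 (SE) and an adjusted p of 0.031 by edgeR. Here and below, the share of all genes tested whose groups do not overlap was not counted. Such separation is therefore a description only. Trf was at 597, 668, 694, 702 and 825 RPM and at 1510, 1663, 1933 and 3519 RPM, again without overlap, with a log2 fold change of 1.63 ± 0.24 and an adjusted p of 0.022 by edgeR. Both calls are fragile: when 1 portion at a time was left out, Cfb lost the call in 6 of 9 fits, without the uninjured portions of plates 1, 3 and 5, the first CCl4 portion of plate 3 and either CCl4 portion of plate 5, with adjusted p up to 0.11. Trf lost it in 4 of 9, without the uninjured portions of plates 1, 3 and 5 and the second CCl4 portion of plate 5, with adjusted p up to 0.074. The 10X call of Trf is fragile too: its ratio was 1.54, and 1.498 as a mean of per-cell CPM. Without cells carrying at least 3 smooth muscle markers, Trf had 1.36 and Cfb 1.49. In cells without a Pi16 UMI, Trf had 1.17 and Cfb 1.60.

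C3 was at 4356, 5006, 5078, 5772 and 9349 RPM in the uninjured and 9401, 11205, 12053 and 16782 RPM in the CCl4 portions. The groups did not overlap, but the adjusted p was 0.20 by edgeR with a log2 fold change of 1.06 ± 0.26, and 0.036 without the highest uninjured portion, that of plate 4. C4b had a log2 fold change of 0.69 ± 0.30 and overlapping groups. These 3 complement genes thus had the same sign on both platforms, and C2, with a log2 fold change of -0.43, did not. Of the members not called on 10X, Clu and Cd55 passed the plate test as higher. Their log2 fold changes were 3.58 ± 0.41 and 2.03 ± 0.32, with adjusted p of 0.0040 and 0.031 by edgeR. For Cd55 the sign was opposite to that of its 10X ratio, 0.745, and for Clu, with 1.48, the same.

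Pi16 was at 136, 164, 246, 338 and 354 RPM and at 47.9, 85.6, 93.7 and 256 RPM, a log2 fold change of -1.01 ± 0.48 with an adjusted p of 0.74 by edgeR. Of the 4 CCl4 portions 3 lay below every uninjured one. Tppp3 had a log2 fold change of -1.02 ± 0.46, and all but 1 of its CCl4 portions lay below every uninjured one. Both had the sign of the 10X difference without passing the test.

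Cyp1b1 and Wbp1l also had CCl4 portions all above the uninjured ones, with log2 fold changes of 2.52 ± 0.62 and 0.78 ± 0.24 and adjusted p of 0.20 and 0.38 by edgeR. Cxcl13 did too, at 102 to 374 RPM against at most 34.9 RPM, with an adjusted p of 0.44 by edgeR, while it was called lower on 10X.

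Aspn went the other way than on 10X. It was at 22.2, 25.7, 47.2, 66.4 and 91.9 RPM in the uninjured and at 19.9, 169, 194 and 211 RPM in the CCl4 portions, a log2 fold change of 1.58 ± 0.60 with an adjusted p of 0.61 by edgeR. Errfi1 was also opposite in sign, at -0.85 ± 0.52, and Ccl2, at 1.76 ± 0.88, rested on 1 CCl4 portion of 403 RPM. For Angptl4 the portions overlapped, from 194 to 374 RPM and from 263 to 601 RPM, and its log2 fold change of 0.44 ± 0.27 compares with a log2 ratio of 3.00 on 10X. The same held for Acta2, at 0.29 ± 0.38 on the plates and 1.60 on 10X. Of the other contractile and mural genes plotted, Rgs5 (1.44 ± 1.20) and Bcam (0.77 ± 0.72) were also positive on the plates. Opposite in sign to 10X were Actg2 (-1.15 ± 1.05), Myl9 (-0.63 ± 0.34), Sncg (-0.55 ± 1.28), Tagln (-0.33 ± 0.65) and Tpm2 (-0.03 ± 0.35). None of them passed the test. Col1a1 was at 2056 to 5575 RPM and at 2430 to 6240 RPM, with a log2 fold change of 0.14 ± 0.32.

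**Figure D5:**
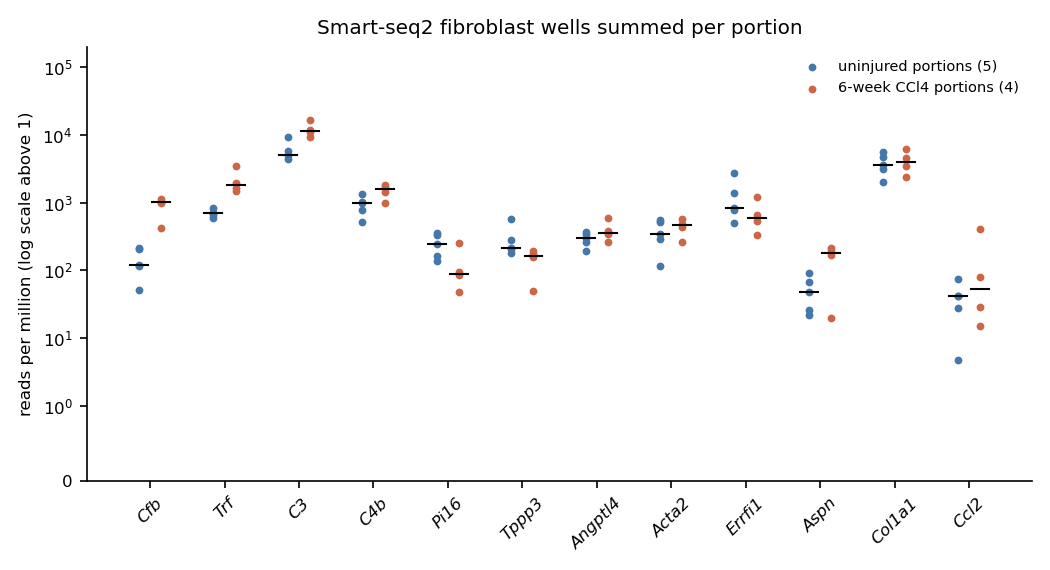
Each point is a portion of Smart-seq2 fibroblast wells, 5 uninjured (blue) and 4 after CCl4 (orange), with RPM on the y axis (logarithmic above 1) and black bars at the medians. The groups do not overlap for Cfb, Trf and C3, and overlap for the other 9 genes. The share of all genes tested without overlap was not counted.

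Of the 41 plate-called genes, 15 were compared on 10X, and 2 of these were called there in the same direction. Of the 12 among them that were higher on the plates, 7 had a 10X ratio above 1. The genes with the largest plate changes were nearly absent on 10X. Saa3, serum amyloid A3, an acute phase protein, was at 3337 to 9718 RPM in the 4 CCl4 and at most 1.67 RPM in the 5 uninjured portions, with an adjusted p of 0.00068 by edgeR, while it stood at 3.31 and 7.48 CPM in the 10X cells. Chl1, a neural cell adhesion molecule, was at 225 to 412 RPM against at most 0.334 RPM, with an adjusted p of 6.1e-05 by edgeR, and had 6 and 3 UMIs on 10X. Cd74, the invariant chain of MHC class II, was at 271 to 937 RPM against at most 5.56 RPM, with an adjusted p of 0.030 by edgeR, and at 3.67 and 2.28 CPM on 10X. These 3 genes were chosen after their values were seen. Without Cd74, the other leucocyte markers summed to 21.7 to 49.7 RPM in the uninjured and 10.6 to 26.6 RPM in the CCl4 portions, and they were not higher after CCl4. Outside that list, H2-Eb1 and H2-DMa, also of MHC class II, were called higher, as were Spib and Tagap. H2-Eb1 was at 66.9 to 200 RPM against at most 2.77 RPM, and H2-DMa at 6.31 to 45.2 RPM against at most 0.429 RPM. The source of these transcripts was not tested. Mesothelial markers summed to at most 627 RPM in the uninjured and 79.1 to 1802 RPM in the CCl4 portions. Without wells that held at least 3 markers of either list, 38 genes were called higher and 1 lower. That filter left 34.1 to 129 RPM of mesothelial and 240 to 688 RPM of leucocyte markers, Cd74 included, in the CCl4 portions. Uninjured portions then held at most 19.7 and 50.5 RPM, so the unchanged count does not show the part of such wells. The part of leucocyte or mesothelial RNA in the plate results was not tested.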

How the data were processed

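Files of the 10X libraries hold UMI counts for each gene in each barcode, which the authors made with Cell Ranger 2.1.0 on mm10 and deposited unnormalized. For Smart-seq2, the authors aligned reads with STAR and deposited read counts per gene and well, also without normalization. Gene positions are from GENCODE vM21 on GRCm38, matched by Ensembl identifier.

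Counts were summed over the selected cells of a library and scaled to counts per 1000000 (CPM), with exact 95% Poisson intervals for levels and exact binomial (Clopper-Pearson) ones for shares and for ratios of counts. A count of 0 was set to 3 counts in ratios, and no ratio is given where both libraries held 3 counts or fewer. Shares are given after thinning to 2000 UMIs, which left out 145 uninjured and 75 CCl4 fibroblast-selected cells. Doublets were not called. Leaving out the cells above the 95th percentile of UMIs stood in for it. The ratio and edgeR steps were tested on simulated data. Of the cell barcodes, 45 occurred in both libraries.

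Genes named are the 10 largest ratios each way with at least 50 CPM in the higher library and the same direction after thinning and as a mean of per-cell CPM, 9 genes the study names, and up to 4 called members of each of 26 gene lists (the 2 most abundant where none was called). A further 8 lists hold markers of other cell types. The members and lists were chosen with earlier results of these data known. The per-list counts are descriptions with no test.

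Wells within 3 median absolute deviations for reads, genes and spike-in share were kept, 1068 of 1148. Fibroblast wells had at least 800 RPM of Cd34, Clec3b and Dpt and at most 200 RPM of Myh11 and Cnn1. Their reads were summed per portion, filtered with filterByExpr, normalized by TMM and tested with edgeR 4.0.16 (glmQLFit, glmQLFTest), with Benjamini-Hochberg adjustment over all genes tested. DESeq2 1.42.0 was an alternative. The software was Python 3.11.15, SciPy 1.17.1 and R 4.3.3. The library at 72 h after CCl4 and the plate with mixed digestions were not used here. Results for a few withheld genes are not reported here.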

Additional observations from a re-analysis of the deposited data

Results flagged for a closer look

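Cells that meet the fibroblast rule were also found outside the libraries compared. In the HSC preparation after 6 weeks of CCl4, 726 of 5454 cells (13.3%, exact 95% interval 12.4 to 14.2) met it, against 12 of 6850 (0.175%) in the uninjured HSC preparation, and their median marker sum was 7. They entered no comparison above.

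For 4 genes called higher in fibroblast-selected cells, the ratio in cells of the HSC preparations lay past 1.5-fold in the opposite direction: 0.634 for Fzd1, 0.504 for Aldh1a3, 0.509 for Efemp1 and 0.499 for Trf. These differences between preparations were not tested, since each rests on 1 library per condition.

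On the plates, 1 portion stood apart from the others of its group by Dixon's test for C3 (9349 RPM in the uninjured portion of plate 4), Tppp3 (580 RPM in the same portion) and Ccl2 (403 RPM in the first CCl4 portion of plate 5). About 1 in 20 groups is marked by chance.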

How the results depend on the processing

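On 10X, the 284 higher and 117 lower calls were 126 and 54 with a minimum of 50 CPM, 2353 and 1191 with no minimum, and 78 and 22 at 2-fold. Without cells carrying at least 3 smooth muscle markers, a choice made after seeing the data like the Pi16 subsets and the relative limit on Myh11 and Cnn1, 196 genes were called lower and 392 higher. Dividing by the median ratio gave 319 and 107. The other settings tried kept both counts within 1.5 times. Of 76 called genes named, 73 kept their direction under all 12 alternatives and 38 also stayed past 1.5-fold. For genes named by their largest ratio, direction after thinning and as a mean of per-cell CPM was part of the naming rule. The other alternatives use cells of the same libraries, so the count of 73 was largely set in advance and does not test the calls. The exceptions in direction were Actg2 (0.540 without cells carrying smooth muscle markers, which include Actg2), Ccl7 (1.03) and Cxcl14 (1.21), the latter genes in cells without Pi16.

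On the plates, the 38 higher and 3 lower calls were 131 and 55 with DESeq2, 2 and 0 with the stricter well rule, and 39 and 2 without the filter on low counts. They were 38 and 1 without wells carrying at least 3 mesothelial or 3 leucocyte markers. Restricted to the plates with both conditions, they were 22 and 2, and 9 and 0 with the plate as a replicate block. The deviations of uninjured and CCl4 portions on the same plate correlated at -0.057 to 0.11, but 4 pairs are too few to tell whether the plate pairs them. Leaving out 1 portion at a time gave 11 to 41 higher and 0 to 5 lower calls, the fewest higher without the second CCl4 portion of plate 5. A total of 879 genes had an unadjusted p under 0.05. The fold change of Col1a1 on the plates was -0.39 with the plate as a block, -0.29 without it on the same plates, and -0.14 to 0.32 when 1 portion was left out. C3 passed the test with DESeq2. Cfb and Trf did not pass on the plates with both conditions, with or without the block, or under the stricter well rule. With 1 10X library per condition, no spread between mice is known for the CPM ratios.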

Other observations

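A set of 19 circadian clock genes was looked up after values of some had been seen, and 15 were compared on 10X. Of these, 4 were called higher, 4 lower and 7 neither way, beside 4.73% higher and 1.95% lower over all genes compared. Nr1d1, which encodes the clock repressor REV-ERB alpha, had the largest ratio of all genes compared, from 27 UMIs in uninjured to 530 UMIs (43.1 CPM) in CCl4 fibroblast-selected cells, a ratio of 30.9. Cry1, another clock repressor, was at 39.5 and 11.6 CPM, and Bhlhe41 at 38.1 and 14.4 CPM. Hlf and Tef were the other lower ones, with ratios of 0.488 and 0.652, and Dbp, Per1 and Cry2 the other higher ones, with 2.15, 2.15 and 1.85. Arntl, the activator BMAL1, and Clock were not called, with 0.736 and 0.819.

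In smooth muscle-selected cells of the same libraries the ratio was 9.88 for Nr1d1, 7.42 for Dbp, 2.28 for Per1, 2.57 for Cry2, 0.498 for Cry1, 0.516 for Arntl and 0.988 for Bhlhe41. Tef, lower in fibroblast-selected cells, was at 32.3 and 48.4 CPM there. In cells of the HSC preparations Nr1d1 went from 30.6 to 11.9 CPM. On the plates Nr1d1 was at 61.0 to 198 RPM in the uninjured and 41.4 to 182 RPM in the CCl4 portions, a log2 fold change of 0.12 with an adjusted p of 0.99 by edgeR. The time of day at which livers were taken is not given in the sources used here, and its part in the 10X differences was not tested.

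Higd1b, a transcript of pericytes, had the ratio next to that of Nr1d1, 12.6, from 1.71 to 21.5 CPM, and stood at 65.2 and 333 CPM in smooth muscle-selected cells.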
